A study of Arabidopsis thaliana with 24 samples.

Results

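The high light response of leaves that over-express BBX32 was described from 8 of the 24 libraries of the series, namely the 4 BBX32-10 libraries exposed to high light (HL) and the 4 BBX32-10 libraries kept in growth light (LL). The members were chosen by genotype and light treatment alone, and every gene of the deposited table entered the comparison. BBX32-10 HL plants were Arabidopsis thaliana of the line BBX32-10 that were lit by white LEDs at about 1100 µmol photons per m2 and s for 3.5 h, beginning 1 h after subjective dawn. BBX32-10 LL plants were the same line not moved from growth conditions, at 150 µmol photons per m2 and s. The Col-0 HL and Col-0 LL groups are wild-type plants with the same treatments, used here to show where the over-expressor differs. The hy5-2 mutant groups entered the model only through the shared estimate of spread. They also had a part in the expression filter, the principal components, the rescaling of libraries and 1 score, all described below. All plants were 35 days past germination and had been grown in cycles of 8 h light and 16 h dark at 23 °C. Each library came from 1 plant (4 fully expanded leaves), with 4 plants in each group. BBX32-10 is a single line, and the promoter that drives its transgene is not given in the sources used here.

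BBX32 is a B-box zinc-finger protein known as a negative regulator of light signalling. HY5 is a bZIP factor that activates many light-induced genes, among them those of flavonoid synthesis, and B-box proteins act as its partners or as brakes on it. A leaf moved to excess light normally lowers the transcripts of its light-harvesting antenna, raises photoprotective and antioxidant genes, and, because light also warms the leaf and oxidises its proteins, switches on heat shock factors and the chaperones they control.

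Expression was given as FPKM (fragments scaled to transcript length and library depth), and 17788 of 34218 genes had an FPKM of at least 1 in at least 4 of the 24 libraries and were tested. Differences are on the log2(FPKM + 1) scale, HL minus LL, with their standard error from limma, and a gene is said to have risen or fallen where its Benjamini-Hochberg adjusted p was under 0.05. The BBX32-10 libraries held 36689484 to 45438369 recovered fragments, and all 24 held 35408723 to 49341933. The leaf label was checked against 4 mesophyll markers (RBCS-1A, RCA, LHCB1.3 and PSAD1), which summed to 25100 to 31400 FPKM in BBX32-10 HL and 34700 to 39700 FPKM in BBX32-10 LL. Markers of flower, root and seed summed to at most 0.577, 0.833 and 0.0792 FPKM in any BBX32-10 library. Guard cell markers summed to 17.5 to 20.4 FPKM in BBX32-10 HL and 19.4 to 20.6 FPKM in BBX32-10 LL, and SUC2, the sucrose carrier of phloem companion cells, had 68.7 to 107 FPKM in BBX32-10 HL against 98.7 to 115 FPKM in BBX32-10 LL. In bulk leaf RNA, fewer cells of a type and less RNA per cell cannot be told apart.

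BBX32 (AT3G21150, TAIR10 chromosome 3, 7412445 to 7413727) checked the line. Its FPKM was 364, 719, 922 and 1050 in BBX32-10 HL replicates 1 to 4, against 810, 853, 897 and 821 in BBX32-10 LL. Col-0 had 15.0 ± 1.4 FPKM in HL and 3.3 ± 0.79 FPKM in LL (SD, n = 4 each), so every BBX32-10 library lay far above every Col-0 library. HL replicate 1 had the least BBX32, below all 4 LL libraries, while HL replicates 3 and 4 lay above them all. The line showed no called change in BBX32 between HL and LL (log2 difference -0.25 ± 0.21, limma adjusted p = 0.443; without HL replicate 1, 0.07, adjusted p = 0.77). In Col-0, BBX32 rose with HL by 1.91 on the same scale.

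HL replicate 1 stood apart from the other 3 HL libraries in more than BBX32. On the second principal component of all libraries it lay at 10.9, between the other BBX32-10 HL libraries at -25.4, -20.0 and -33.9 and the Col-0 HL libraries at 21.5 to 37.4. It was the lowest of the 4 HL libraries for 48.4% of tested genes and the highest for 21.0%, and after the libraries were rescaled by the median of ratios these shares were 31.5% and 34.8%. The median SD of log2 values over genes was 0.216 in BBX32-10 HL, against 0.119 in BBX32-10 LL, 0.136 in Col-0 HL and 0.121 in Col-0 LL. Whether the lower BBX32 level has a part in how this plant differs was not tested, and with 1 such plant the level and the plant cannot be told apart. Results are therefore given with and without it.

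**Figure D1:**
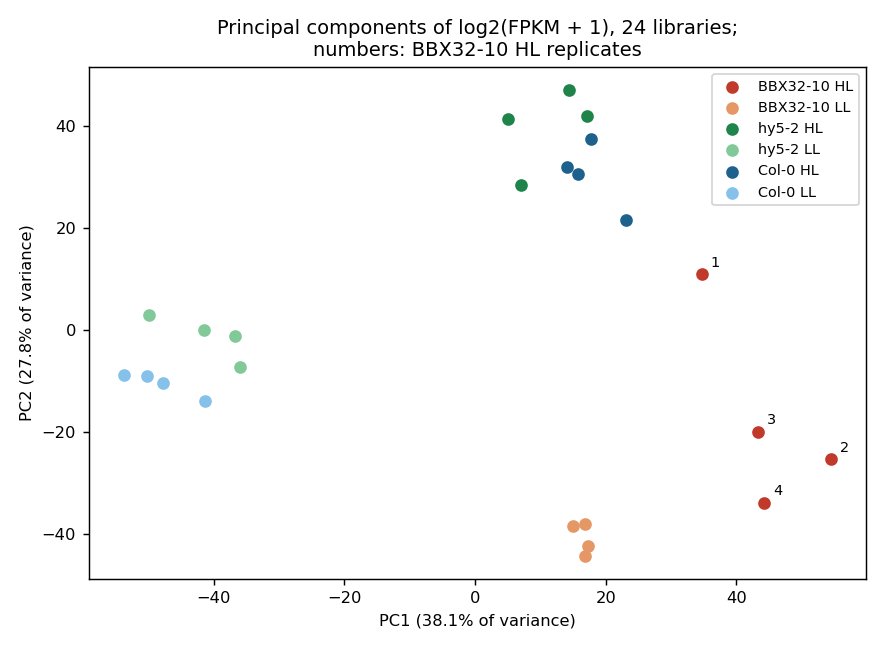
Principal components of log2(FPKM + 1) over all tested genes, with 1 point a library; the horizontal axis is PC1 (38.1% of variance) and the vertical axis PC2 (27.8%), and colours mark the 6 groups. BBX32-10 HL replicate 1 sits at 10.9 on PC2, above the other 3 BBX32-10 HL libraries (-20.0 to -33.9), while the BBX32-10 LL libraries lie at -38.2 to -44.3.

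Across the transcriptome, 3487 genes (19.6% of those tested) changed with HL in BBX32-10, of which 1912 (10.7%) rose and 1575 (8.85%) fell. With libraries rescaled the calls were 1868 higher and 1943 lower, so which direction is more frequent depends on the scaling. Of the calls as deposited, 211 (1.19%) rose and 115 (0.647%) fell by 2-fold or more. Without HL replicate 1, 3781 genes (21.3%) changed, with 2306 (13.0%) higher and 1475 (8.29%) lower, and the genes changed by 2-fold or more numbered 269 higher (1.51%) and 133 lower (0.748%). The calls in common numbered 2890, which is 82.9% of the calls with all libraries and 76.4% of those without HL replicate 1, and all had the same direction. There were 2014 genes (11.3%) called also in each of the 8 fits that left out 1 BBX32-10 library, 1108 higher (6.23%) and 906 lower (5.09%). The groups did not overlap for 1862 genes higher in HL (10.5%) and 1639 genes lower in HL (9.21%). The count depended on how the spread was estimated: fitting only the 8 BBX32-10 libraries gave 1982 genes (11.1%; 1108 or 6.23% higher and 874 or 4.91% lower), and array quality weights, which gave HL replicate 1 a weight of 0.209 and HL replicate 2 one of 4.11, gave 7745.

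In Col-0, 9182 genes (51.6%) changed with HL, of which 5340 (30%) rose and 3842 (21.6%) fell, or 4631 and 4907 with libraries rescaled. The shares of 30% and 21.6% in Col-0, and of 10.7% and 8.85% in BBX32-10, are the background for the list counts below. The difference between the responses (BBX32-10 minus Col-0, the genotype by light interaction) was called for 3524 genes (19.8%), 1236 higher (6.95%) and 2288 lower (12.9%) in BBX32-10. Rescaling the libraries evened these directions to 1862 and 1851 genes, while the authors' scaling gave more interactions below 0. Of the 5340 genes that rose in Col-0, 1513 also rose in BBX32-10, 3761 were not called there, and for 1645 of these 3761 the interaction itself was called. In the other direction, 371 genes rose in BBX32-10 and were not called in Col-0, and 118 genes that rose in BBX32-10 had a called interaction above 0. Leaving out HL replicate 1 moved the interaction count to 4808 (27.0%; 2092 higher and 2716 lower).

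To see how far each HL plant followed the others, genes were chosen as called with at least a 2-fold change in the fit without that plant, and its own values were then read. HL replicate 1 showed a median of 51.9% of the other plants' change over 269 genes that rose in them, and 64.9% over 133 genes that fell. HL replicate 2 showed 115% and 109%, HL replicate 3 showed 74.5% and 72.2%, and HL replicate 4 showed 96.2% and 79.8%. HL replicate 1 was thus the weakest responder on both sets, although 74.3% of its rising genes and 71.4% of its falling genes lay beyond the range of the 4 LL libraries.

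**Figure D2:**
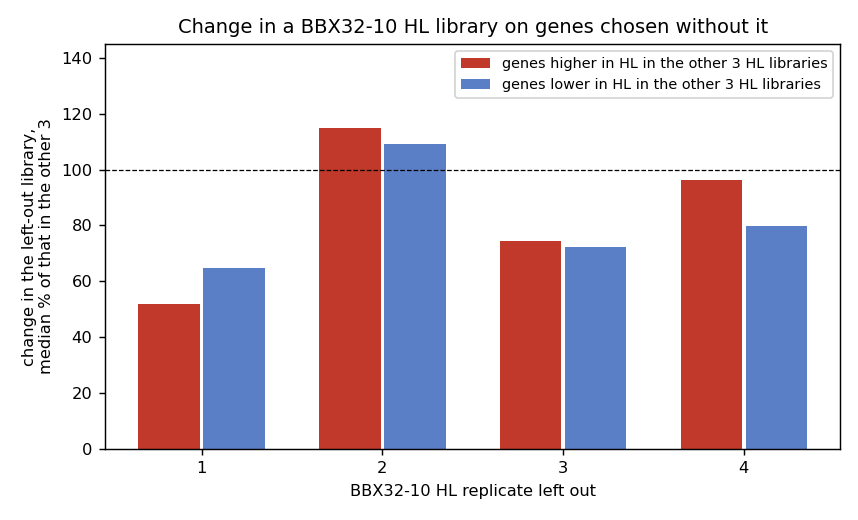
Bars give, for each BBX32-10 HL replicate (horizontal axis), the median percentage of the other 3 HL libraries' change that it showed (vertical axis), on genes chosen without it; red, genes higher in HL, and blue, genes lower in HL. HL replicate 1 has the lowest bars, at 51.9% and 64.9%, and HL replicate 2 the highest, at 115% and 109%.

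A score over 988 genes chosen in the hy5-2 libraries gave a different order of the plants. Against their own LL mean, the BBX32-10 HL libraries scored 0.771, 0.769, 0.602 and 0.540 log2 units for replicates 1 to 4, and the Col-0 HL libraries scored 1.40, 1.40, 1.40 and 1.49. Set against the Col-0 LL mean instead, the BBX32-10 HL libraries scored 1.43, 1.43, 1.26 and 1.2, and the BBX32-10 LL libraries 0.605 to 0.698. The LL libraries of the over-expressor thus already lay above Col-0 LL on these genes.

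Heat shock genes were among those that rose. The promoters of 3 of them and of ELIP1, a photoprotective gene whose response differed from that in Col-0, are shown because the heat shock motif and the G-box that HY5 is known to bind both occur among them. Each sequence runs 5′ to 3′ from 250 bases before the gene start to 50 bases after it (RefSeq, assembly TAIR10.1, 300 bases), and capitals mark the letters GAANNTTC or TTCNNGAA, which are neighbouring units of a heat shock element, and CACGTG, a G-box. HSFA2 lies on the plus strand at chr2:11135374-11135673, HOP3 on the minus strand at chr4:7341314-7341613, HSP23.5 on the plus strand at chr5:20890913-20891212 and ELIP1 on the minus strand at chr3:8085620-8085919.
HSFA2: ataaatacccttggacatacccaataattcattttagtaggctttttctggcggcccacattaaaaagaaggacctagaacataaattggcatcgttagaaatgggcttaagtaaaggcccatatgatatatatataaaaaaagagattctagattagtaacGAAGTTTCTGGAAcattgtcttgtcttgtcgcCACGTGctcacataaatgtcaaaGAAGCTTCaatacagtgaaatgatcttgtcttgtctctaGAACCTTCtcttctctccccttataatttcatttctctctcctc
HOP3: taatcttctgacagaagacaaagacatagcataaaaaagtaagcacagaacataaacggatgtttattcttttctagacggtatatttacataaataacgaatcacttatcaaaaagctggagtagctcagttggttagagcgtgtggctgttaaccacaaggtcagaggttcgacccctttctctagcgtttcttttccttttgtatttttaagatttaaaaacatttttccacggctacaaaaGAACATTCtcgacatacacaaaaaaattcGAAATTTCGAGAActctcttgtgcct
HSP23.5: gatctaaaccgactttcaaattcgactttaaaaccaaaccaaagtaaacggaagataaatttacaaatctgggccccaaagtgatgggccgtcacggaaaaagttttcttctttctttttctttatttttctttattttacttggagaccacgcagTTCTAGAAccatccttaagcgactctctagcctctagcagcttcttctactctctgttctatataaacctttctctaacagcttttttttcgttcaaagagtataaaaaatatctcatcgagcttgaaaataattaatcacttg
ELIP1: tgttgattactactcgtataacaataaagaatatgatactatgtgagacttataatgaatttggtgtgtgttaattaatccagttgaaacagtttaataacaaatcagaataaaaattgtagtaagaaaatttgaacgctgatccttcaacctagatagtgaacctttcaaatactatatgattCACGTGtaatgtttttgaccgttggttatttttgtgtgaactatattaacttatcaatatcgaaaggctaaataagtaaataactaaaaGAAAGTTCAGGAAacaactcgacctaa
The 3 motifs read the same on both strands, and GAANNTTC and TTCNNGAA can overlap by 3 bases, as they do in the run GAAGTTTCTGGAA of HSFA2. HSFA2 held 3 GAANNTTC, 1 TTCNNGAA and 1 CACGTG, HOP3 held 2 GAANNTTC and 1 TTCNNGAA, HSP23.5 held 1 TTCNNGAA, and ELIP1 held 1 of each. Among the 17672 tested genes with a promoter, 11.4% held GAANNTTC, 9.13% TTCNNGAA and 8.98% CACGTG. Among the 211 genes that rose by 2-fold or more in BBX32-10, these shares were 19.0%, 17.1% and 17.1%, and among 112 genes that fell by 2-fold or more they were 14.3%, 8.93% and 8.93%. Of the 14 tested small heat shock protein genes, 7 held GAANNTTC or TTCNNGAA in this window, and 1 held CACGTG. These are matches of letters and not measured sites.

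Small heat shock proteins, which hold unfolding proteins in solution, rose in most of the tested members. Of 18 members, 14 passed the expression filter, and 12 of these rose with HL in BBX32-10 and none fell. Their median log2 difference was 2.57, against 0.02 for all tested genes (without HL replicate 1, 12 rose, median 3.06). Several passed the filter only through their HL libraries, so the count and the median over tested members are descriptions and give no rank among lists. In Col-0, 14 of 14 rose with a median of 2.25. The interaction was called for 1 member with all libraries and for 6 without HL replicate 1, all higher in BBX32-10.

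HSP17.6B (AT2G29500, chromosome 2, 12633065 to 12634120) had 37.2, 166, 78.5 and 124 FPKM in BBX32-10 HL replicates 1 to 4, against 1.77, 3.28, 2.55 and 2.58 FPKM in BBX32-10 LL. The groups did not overlap, and replicate 1 was the lowest of the HL plants, though still above every LL plant. Its log2 difference was 4.67 ± 0.41 (limma adjusted p = 1.13e-07), and that in Col-0 was 5.97. HSP23.5, a mitochondrial member, had 23.3, 94.4, 37.6 and 55.1 FPKM in HL against 1.76, 2.31, 2.41 and 2.09 FPKM in LL (log2 difference 3.92 ± 0.39, limma adjusted p = 6.89e-07). HSP17.8, a cytosolic member, had 20.2, 129, 53.3 and 70.0 FPKM in HL against 1.56, 1.40, 3.11 and 1.47 FPKM in LL (4.35 ± 0.35, limma adjusted p = 4e-08). Replicate 1 was again lowest in both, as it was for 13 of the 14 members, with or without rescaling. HSP23.6, also mitochondrial, was listed at 0.895, 47.9, 10.4 and 8.82 FPKM in HL, and at 0, 0, 0.0259 and 0 FPKM in LL. For HSP17.6 the log2 difference was 4.40, and for HSP17.7 it was 3.68. The members without a call were HSP18.1, at 0.63 (adjusted p = 0.111), and HSP15.4, at 0.57 (adjusted p = 0.0598). Per plant, the median change of the list was 1.14 in HL replicate 1, 3.89 in replicate 2, 2.58 in replicate 3 and 2.70 in replicate 4, while the Col-0 HL libraries lay at 2.02 to 2.86.

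**Figure D3:**
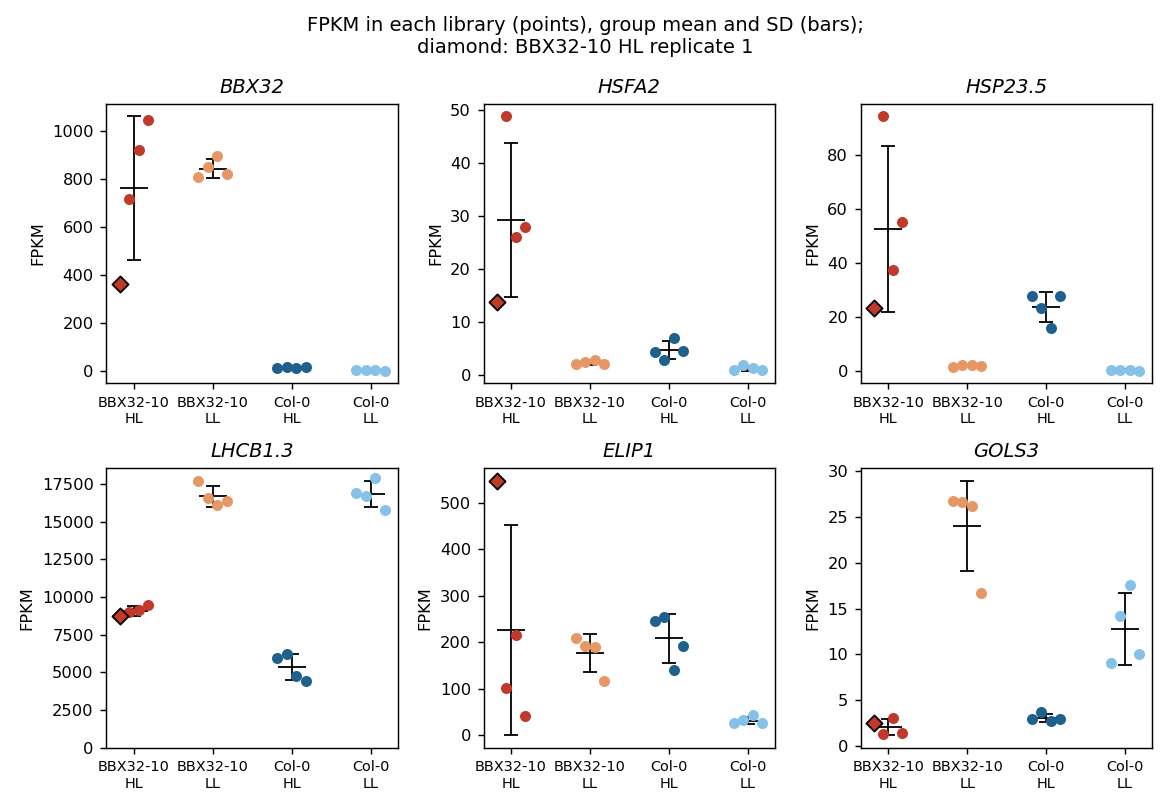
FPKM (vertical axes, linear) of 6 genes in each library, with group mean and SD as bars (n = 4 each) and a diamond for BBX32-10 HL replicate 1. HSFA2 and HSP23.5 are higher in every BBX32-10 HL library than in every BBX32-10 LL library, LHCB1.3 and GOLS3 are lower, and BBX32 (364 FPKM in replicate 1) and ELIP1 (547 FPKM in replicate 1) scatter within HL.

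The larger chaperones, which refold or disassemble client proteins, rose too. Of 30 tested HSP70, HSP90, HSP100 and co-chaperone genes, 20 rose in BBX32-10 and none fell (median 0.72; without HL replicate 1, 22 rose, median 0.86). In Col-0, 20 rose and 1 fell (median 0.55). HOP3 (AT4G12400), a scaffold that links HSP70 to HSP90, had 9.88, 47.8, 30.1 and 29.4 FPKM in BBX32-10 HL against 0.847, 0.618, 0.556 and 0.902 FPKM in BBX32-10 LL (3.95 ± 0.29, limma adjusted p = 1.31e-08). MED37C (AT3G12580), a heat-inducible cytosolic HSP70, had 111, 463, 327 and 413 FPKM in HL against a mean of 21.6 ± 3 FPKM in LL (SD, n = 4; 3.69 ± 0.31, limma adjusted p = 8.15e-08). For both genes every HL plant lay above every LL plant, with replicate 1 lowest among the HL plants. HSP90-1, the heat-inducible cytosolic HSP90, rose by 3.36 on the log2 scale. The constitutive HSP70 gene MED37E, the most abundant member, had 870 to 997 FPKM in HL and 878 to 1020 FPKM in LL, which overlap (-0.06, adjusted p = 0.788).

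Called interactions among the chaperones went in both directions. CLPB1, the cytosolic HSP100 that dissolves protein aggregates, had 13.6, 46.0, 25.9 and 32.1 FPKM in BBX32-10 HL against 3.17, 3.94, 4.14 and 4.45 FPKM in BBX32-10 LL. Its rise of 2.51 exceeded that of 1.31 in Col-0 (interaction 1.2 ± 0.31, limma adjusted p = 0.00844). FKBP65, a cytosolic co-chaperone, also had a higher interaction (1.24, adjusted p = 0.0473). HSP90-5, a plastid HSP90, had 482, 464, 434 and 322 FPKM in BBX32-10 HL against 134, 130, 159 and 155 FPKM in BBX32-10 LL, a rise of 1.54 that fell short of the 2.38 in Col-0 (interaction -0.85 ± 0.19, limma adjusted p = 0.00275). HSP70-6, a plastid HSP70, rose by 0.62 in BBX32-10, with an interaction of -0.63 (adjusted p = 0.0041). In the whole list, 3 interactions were higher and 5 lower, and without HL replicate 1 the counts were 9 and 5. With libraries rescaled they were 6 and 3, so which direction is more frequent depends on that plant and on the scaling.

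Heat shock factors and their co-regulators rose in 11 of 17 tested genes, with none lower (median 0.60; without HL replicate 1, 10 rose). In Col-0, 7 rose and 2 fell, and the interaction was higher for 6 and lower for 2. HSFA2, the factor that sustains the heat shock response, had 13.8, 48.8, 26.1 and 28 FPKM in BBX32-10 HL against 2.19, 2.43, 2.93 and 2.05 FPKM in BBX32-10 LL. Its rise of 3.03 ± 0.28 (limma adjusted p = 2.3e-07) was larger than the 1.26 in Col-0, where it averaged 4.72 ± 1.7 FPKM in HL and 1.34 ± 0.47 FPKM in LL (SD, n = 4 each; interaction 1.76 ± 0.40, limma adjusted p = 0.00322). MBF1C, a heat-induced transcriptional coactivator, had 40.8, 94.2, 81.4 and 77.5 FPKM in HL against 6.34, 7.23, 8.26 and 7.49 FPKM in LL (3.10 ± 0.26; interaction 1.69 ± 0.37, limma adjusted p = 0.00269). Both genes were lowest in replicate 1 among the HL plants, without reaching the LL range. The class B factors HSFB2A (1.3, interaction 1.58) and HSFB2B (1.38, interaction 0.62) rose in BBX32-10 with interactions above 0. For HSFB2A the interaction exceeded the rise itself, so Col-0 showed no rise. HSFA3 rose less in BBX32-10 than in Col-0 (0.60, interaction -0.59). HSFA7A (1.17) and DREB2A (1.00), a drought and heat regulator upstream of HSFA3, rose with no called interaction.

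**Figure D4:**
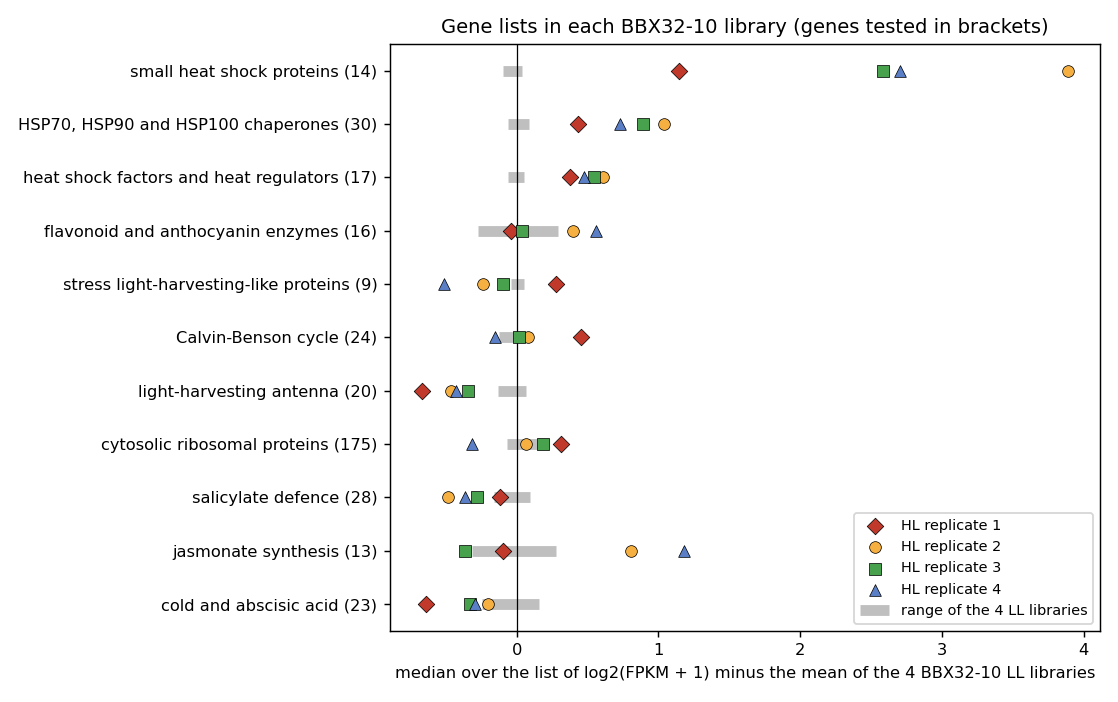
Each symbol is the median over a gene list of log2(FPKM + 1) in 1 BBX32-10 HL library minus the mean of the 4 BBX32-10 LL libraries (horizontal axis), grey bars span the 4 LL libraries, and genes tested are in brackets. For small heat shock proteins HL replicate 1 is lowest at 1.14 and replicate 2 highest at 3.89, while for Calvin-Benson genes replicate 1 is highest at 0.45.

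Light-harvesting antenna genes, mainly those of photosystem II, fell in BBX32-10, but by less than in Col-0. Of 20 tested light-harvesting genes, 14 fell and 1 rose (median -0.47; the same counts without HL replicate 1, median -0.39), while in Col-0 17 fell and 2 rose (median -1.26). The interaction was higher for 16 and lower for 1. The trimer proteins of photosystem II fell in 8 of 8 genes (median -0.70 in BBX32-10 and -1.64 in Col-0). Of the 6 minor photosystem II antenna genes 4 fell and 1 rose. Of the 6 photosystem I antenna genes 2 fell (median -0.23), against 5 in Col-0 (median -0.93). Fitting only the 8 BBX32-10 libraries left 10 falls and 1 rise in the list, with 1 fall among the minor genes. LHCB1.3, the most abundant, had 8720, 8980, 9150 and 9460 FPKM in BBX32-10 HL against 17700, 16600, 16100 and 16400 FPKM in BBX32-10 LL. These plants agreed closely within each group and did not overlap (-0.88 ± 0.12, limma adjusted p = 2.72e-05; interaction 0.79, adjusted p = 0.00236). Its transcript is 91.7% identical over 974 bases to that of AT1G29910, so reads may be split between them. LHCB2.4 had 258, 277, 339 and 276 FPKM in HL against 824, 829, 659 and 852 FPKM in LL (-1.46 ± 0.11, limma adjusted p = 2.2e-08; -2.99 in Col-0).

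LHB1B1 (AT2G34430, chromosome 2, 14524607 to 14525918) had the largest fall of the antenna, at 156, 219, 409 and 363 FPKM in BBX32-10 HL against 1440, 1390, 1100 and 1380 FPKM in BBX32-10 LL. Its log2 difference was -2.30 ± 0.21 (limma adjusted p = 2.21e-07), and its level is uncertain because its neighbour LHB1B2, 91.4% identical over 806 bases, is listed at 0 in every BBX32-10 library. LHCB4.3, a minor antenna protein of photosystem II, was the member that rose. It had 159, 74.9, 51.9 and 18.9 FPKM in HL against 13.0, 11.3, 10.1 and 11.8 FPKM in LL (2.26 ± 0.35, limma adjusted p = 0.000101). All HL plants lay above all LL plants, replicate 1 was highest and replicate 4 lowest, and Col-0 rose by 2.06.

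Core subunits followed the antenna at a smaller scale. Of 31 photosystem and electron transport genes, 11 fell and 1 rose in BBX32-10 (median -0.25), against 24 and 1 in Col-0 (median -0.75), and 21 interactions were higher. Fitting only the 8 BBX32-10 libraries left 4 of the 11 falls. Photosystem I subunits fell in 7 of 12 genes and photosystem II subunits in 4 of 10, of which rescaling left 1 and only the 8 libraries 0. FD1, a leaf ferredoxin, was the gene that rose, with 1350, 1200, 1160 and 954 FPKM in HL against 543, 516, 474 and 543 FPKM in LL. The groups were far apart (1.16 ± 0.11, limma adjusted p = 2.62e-07), and the rise was smaller than the 2.15 in Col-0 (interaction -0.99, adjusted p = 0.00015). Of chlorophyll synthesis, 7 of 17 tetrapyrrole genes fell and 1 rose (11 and 1 in Col-0). The riser, DVR, kept its call in 1 of the 8 fits that left out 1 BBX32-10 library (without HL replicate 1, limma adjusted p = 0.113). Fitting only the 8 BBX32-10 libraries left 4 falls and 0 rises in the list. Among those that fell were CAO (AT1G44446), which makes chlorophyll b (-0.76, adjusted p = 8.59e-07), HEMA1, which makes the first committed precursor (-0.68), and CHLH, a magnesium chelatase subunit (-0.73). For the last pair the responses in Col-0 were -0.77 and -0.43, and no interaction was called. NYC1, which breaks down chlorophyll b, rose (0.60).

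Stress-induced relatives of the antenna did not rise as a group in BBX32-10. None of 9 tested members rose and 3 fell (median -0.19), whereas 5 rose and 1 fell in Col-0 (median 0.28; 3 and 1 with libraries rescaled). Without HL replicate 1, 4 fell (median -0.31), and with only the 8 libraries limma called none (2 at an unadjusted p under 0.05), while voom on all libraries called 3. ELIP1, an early light-induced protein that binds freed chlorophyll, had 547, 103, 215 and 40.9 FPKM in BBX32-10 HL against 210, 193, 189 and 116 FPKM in BBX32-10 LL. Replicates 1 and 3 exceeded every LL plant, replicates 2 and 4 lay below them all, and no change was called (-0.21 ± 0.46, limma adjusted p = 0.802; without replicate 1, -0.83, adjusted p = 0.112). Col-0 averaged 208 ± 52 FPKM in HL and 32.1 ± 7.9 FPKM in LL (SD, n = 4 each), and the interaction was -2.86 ± 0.65 (limma adjusted p = 0.00375).

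ELIP2 had 101, 5.97, 22.7 and 2.34 FPKM in BBX32-10 HL against 87.0, 69.0, 60.2 and 35.2 FPKM in BBX32-10 LL. Here replicate 1 lay above all LL plants and the other 3 below them all, and the fall of -1.98 (limma adjusted p = 0.0452) became -2.89 without replicate 1 (adjusted p = 0.000751). PSBS, the sensor of photoprotective quenching and the most abundant of the list, had 3780, 3020, 2780 and 2130 FPKM in HL against 2880, 2800, 2740 and 2890 FPKM in LL, with no call (0.02, adjusted p = 0.933) and a lower interaction (-0.82, adjusted p = 0.00186). HL replicate 1 was the highest HL library for 8 of the 9 members. FTSH5, a thylakoid protease of photosystem repair, had 584, 455, 459 and 401 FPKM in HL against 649, 641, 568 and 555 FPKM in LL. It fell in BBX32-10 (-0.35, adjusted p = 0.0135), a call lost with libraries rescaled and with only the 8 libraries, and rose in Col-0 (0.57), with an interaction of -0.92 (adjusted p = 0.000124).

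Calvin-Benson cycle genes showed no common shift over all 4 HL plants (5 of 24 rose, 2 fell, median 0.04; without HL replicate 1, 4 rose and 6 fell, median -0.03), and with only the 8 libraries limma called none (7 at an unadjusted p under 0.05), while voom on all libraries called 7. In Col-0, 12 rose and 1 fell (median 0.38). Per plant, the median change was 0.45 in replicate 1, 0.08 in replicate 2, 0.01 in replicate 3 and -0.15 in replicate 4, and Col-0 HL libraries lay at 0.32 to 0.45. Replicate 1, the plant with the least BBX32, had a median at the top of the Col-0 HL values, or above them with libraries rescaled (0.56, against 0.23 to 0.39), and was the highest for 21 of 24 genes. Among cytosolic ribosomal proteins, 8 of 175 rose in BBX32-10 (median 0.07), 164 rose in Col-0 (median 0.61), and the interaction was lower for 132, or 106 with libraries rescaled. The shares over all tested genes were 10.7% higher in BBX32-10, 30% higher in Col-0 and 12.9% with a lower interaction. Replicate 1 was the highest HL library for 146 of the 175 (164 when rescaled). The median change from the LL mean of the same genotype was 0.31, 0.07, 0.18 and -0.31 for replicates 1 to 4. It was 0.46 to 0.77 in the Col-0 HL libraries, so as deposited every BBX32-10 HL plant changed less than every Col-0 HL plant. With libraries rescaled this did not hold for replicate 1. Its median change was then 0.4227, just above the lowest of the Col-0 HL values of 0.4198 to 0.6227. The LL level itself was higher in BBX32-10 than in Col-0, by a median of 0.29 as deposited. Summed over the list, BBX32-10 HL replicates 1 to 4 had 37500, 31200, 33700 and 23600 FPKM. The Col-0 HL libraries had 34000 to 41800 FPKM. Over all tested genes, replicate 1 was the highest for 21.0% as deposited and 34.8% when rescaled.

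Flavonoid and anthocyanin synthesis, a known output of HY5, had few called changes in BBX32-10. Of 16 tested enzymes 1 rose and 1 fell (median 0.21; without HL replicate 1, 2 rose and 1 fell, median 0.34). In Col-0 15 rose and none fell (median 1.32), and the interaction was lower for 7. Of all tested genes, 10.7% rose and 8.85% fell in BBX32-10, 30% rose in Col-0, and 12.9% had a lower interaction. Fitting only the 8 BBX32-10 libraries gave 2 rises and 0 falls. Per plant, the median change was -0.04, 0.40, 0.03 and 0.56 for HL replicates 1 to 4, and 0.92 to 1.71 in Col-0 HL. The LL level was already higher in BBX32-10, by a median of 2.15 log2 units over Col-0 LL, and the HL level exceeded that of Col-0 HL by 0.86. CHS, the entry enzyme, had 796, 908, 610 and 914 FPKM in BBX32-10 HL against 987, 800, 917 and 644 FPKM in BBX32-10 LL. The groups overlapped throughout (-0.05, adjusted p = 0.905), and Col-0 averaged 474 FPKM in HL and 299 FPKM in LL. FLS1, which makes flavonols, had 59.2, 18.1, 30.4 and 5.36 FPKM in HL against 81.5, 71.2, 71.7 and 33.9 FPKM in LL and fell (-1.51 ± 0.42, limma adjusted p = 0.0142; without replicate 1, -2). That call was lost with only the 8 libraries. The acyltransferase gene AT1G03495 rose (1.11, adjusted p = 0.00112), but it is 96.6% identical over 1244 bases to 3AT1, so reads may be split. Of the phenylpropanoid entry enzymes 3 of 8 fell, led by 4CL1, with 95.4, 89.1, 94.3 and 103 FPKM in HL against 171, 166, 152 and 138 FPKM in LL (-0.71 ± 0.07, limma adjusted p = 1.08e-06; 0.05 in Col-0). CACGTG was present in the promoters of 6 of the 16 flavonoid enzymes (37.5%) and 5 of the 20 antenna genes (25.0%), against 8.98% of all.

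HY5 itself had 30.7, 37.3, 34.7 and 46.5 FPKM in BBX32-10 HL against 34.3, 41, 39.3 and 33.0 FPKM in BBX32-10 LL, with no call (0.01, adjusted p = 0.987). Its level in all 8 libraries was above the Col-0 mean of 21.4 ± 3.3 FPKM in HL and 7.40 ± 0.9 FPKM in LL (SD, n = 4 each), and the interaction was -1.40 ± 0.22 (limma adjusted p = 0.000156). HYH, its close homolog, had 98.6, 102, 87.2 and 88.2 FPKM in HL against 95.9, 106, 99.1 and 82.1 FPKM in LL (-0.02; interaction -1.91). Of the 10 genes of this module 1 rose and 1 fell, against 8 and 1 in Col-0, and without HL replicate 1 the counts in BBX32-10 were 1 and 4. In the B-box family 5 of 25 rose and 5 fell (10 and 7 in Col-0, and 4 and 2 in BBX32-10 with only the 8 libraries). The shares over all tested genes were 10.7% and 8.85% in BBX32-10, and 30% and 21.6% in Col-0. MIP1B, a small protein with a single B-box, had 28.4, 12.2, 15.0 and 11.5 FPKM in HL against 5.71, 5.13, 4.17 and 5.17 FPKM in LL, and rose (1.47, limma adjusted p = 5.36e-05). The growth factors PIF5 (-0.56) and PIF4 (-0.52) fell. The PIF4 call was lost without replicate 1 (adjusted p = 0.102), and both fell less than in Col-0 (interactions 0.45 and 1.17).

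**Figure D5:**
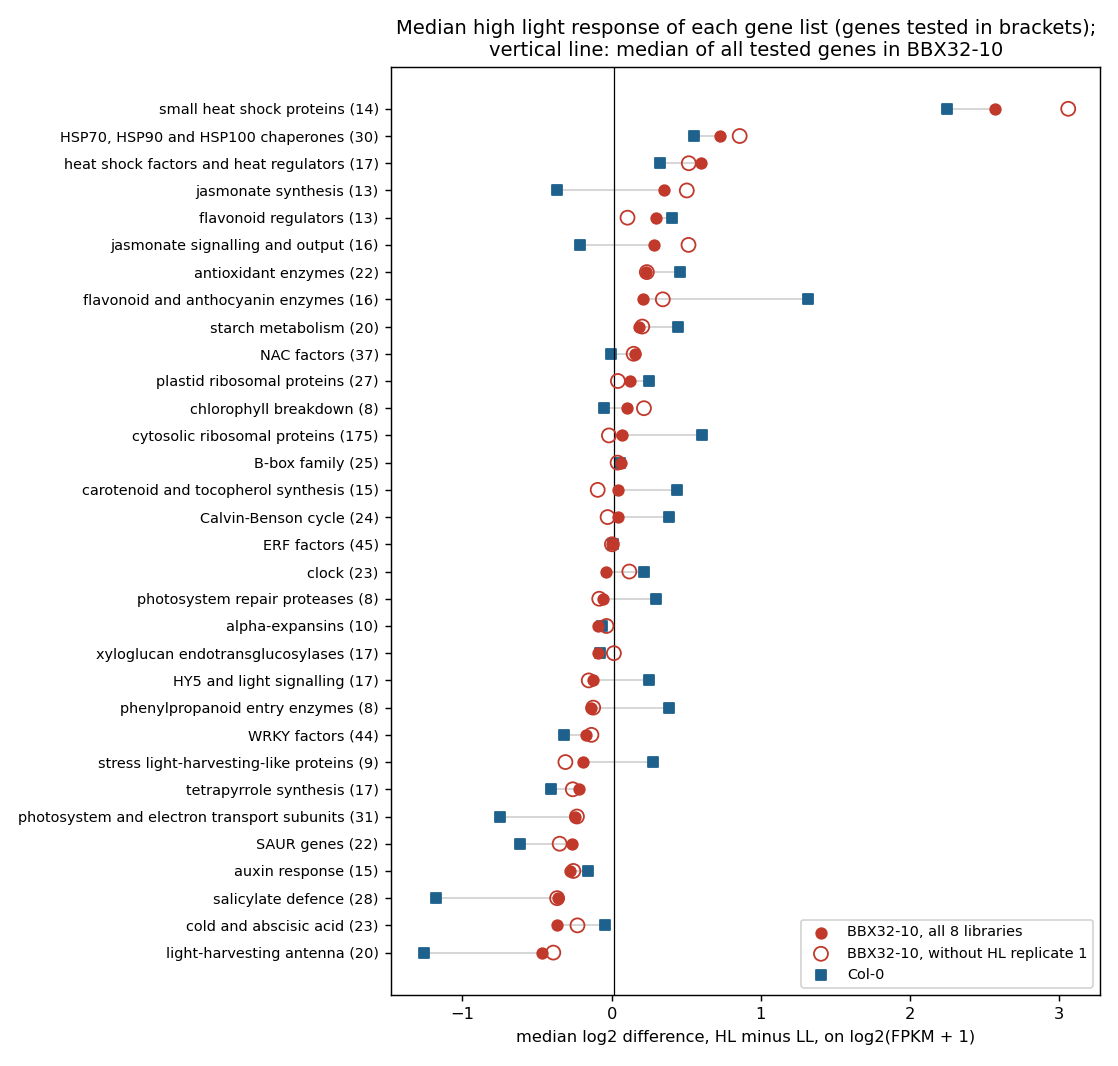
Median log2 difference, HL minus LL, of each gene list (horizontal axis; genes tested in brackets) in BBX32-10 with all libraries (filled red circles), in BBX32-10 without HL replicate 1 (open circles) and in Col-0 (blue squares). Small heat shock proteins lie at 2.57 in BBX32-10 and 2.25 in Col-0, flavonoid enzymes at 0.21 and 1.32, and the antenna at -0.47 and -1.26.

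Cold-regulated genes fell in BBX32-10. Of 11 tested CBF and COR genes 6 fell and none rose (median -1.10; the same counts without HL replicate 1, median -1.26). Fitting only the 8 BBX32-10 libraries left 3 falls. In Col-0 1 rose and none fell (median -0.19), and the interaction was lower for 4. Outside this list, GOLS3 (AT1G09350, chromosome 1, 3019639 to 3021443), a galactinol synthase induced by cold, had the largest fall of all genes named by rule. It had 2.58, 1.3, 3.08 and 1.41 FPKM in BBX32-10 HL against 26.7, 26.6, 26.2 and 16.7 FPKM in BBX32-10 LL (-3.04 ± 0.19, limma adjusted p = 7.45e-10; -1.71 in Col-0). COR413IM1, a cold-regulated gene also outside the list, fell in BBX32-10 (-1.62) and in Col-0 (-2.35). Its interaction was not called (0.73, limma adjusted p = 0.163). COR15A, which protects chloroplast membranes, had 1740, 964, 800 and 296 FPKM in HL against 1860, 1860, 1840 and 1350 FPKM in LL. Replicate 1 lay inside the LL range and the other 3 below it (-1.10, adjusted p = 0.0155; without replicate 1, -1.48), and Col-0 rose by 0.79 (interaction -1.90). KIN2 had 924, 849, 823 and 815 FPKM in HL against 1910, 2100, 2180 and 1750 FPKM in LL (-1.22 ± 0.14, limma adjusted p = 3.78e-06), with 0.01 in Col-0, and it is 91.7% identical to KIN1. RD29A, a drought and cold responsive gene, fell by 1.43 (interaction -1.22). In LL the list, with the abscisic acid genes, stood 0.50 above Col-0 LL (median over 23 genes).

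Antioxidant genes rose in 7 of 22 cases and fell in 3 (13 and 4 in Col-0), and only the 8 libraries left 4 rises and 1 fall. Of all tested genes, 10.7% rose and 8.85% fell in BBX32-10, against 30% and 21.6% in Col-0. APX1, the cytosolic ascorbate peroxidase, had 1530, 2270, 1880 and 2350 FPKM in BBX32-10 HL against 1160, 1220, 1100 and 1180 FPKM in BBX32-10 LL. All HL plants lay above all LL plants, with replicate 1 lowest (0.77 ± 0.09, limma adjusted p = 6.58e-06). DHAR1, a dehydroascorbate reductase, had 816, 2780, 1450 and 5260 FPKM in HL and 836, 754, 864 and 1000 FPKM in LL. It was not called with all libraries (1.25, limma adjusted p = 0.0508) but was called without replicate 1 (1.69, limma adjusted p = 0.00631). Of the 8 fits that left out 1 BBX32-10 library, 2 called it. VTC2, the control point of ascorbate synthesis, fell in BBX32-10 (-0.40, adjusted p = 0.0178) and rose in Col-0 (0.84; interaction -1.24). CAT2, the leaf catalase, rose by 0.45 (adjusted p = 0.0376), a call lost without replicate 1 (adjusted p = 0.124), and by 1.56 in Col-0. Of 8 zinc-finger and related regulators that mark reactive oxygen limma called none in BBX32-10 (median -0.33; 1 at an unadjusted p under 0.05, and 0 called by voom), and 6 fell in Col-0.

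Jasmonate genes divided the HL plants in pairs. Over 13 synthesis genes the median change was -0.09 in replicate 1, 0.81 in replicate 2, -0.37 in replicate 3 and 1.18 in replicate 4, and limma called none (2 at an unadjusted p under 0.05, and 0 called by voom; 2 rose without replicate 1). VSP2, a storage protein induced by jasmonate, had 125, 790, 132 and 2090 FPKM in HL and 58.3, 38.4, 95.2 and 165 FPKM in LL. Replicates 2 and 4 were high and replicates 1 and 3 within the LL range (2.39, adjusted p = 0.0669; without replicate 1, 2.95, adjusted p = 0.03). Col-0 plants also differed widely within a group, with 292, 354, 1860 and 817 FPKM of VSP2 in HL. In Col-0 LL they had 1390, 67.0, 82.6 and 784 FPKM. BAM5, a beta-amylase, had 39.1, 340, 173 and 320 FPKM in BBX32-10 HL against 14.2, 14.4, 30.9 and 21.8 FPKM in BBX32-10 LL, and rose (3.03, adjusted p = 0.00107; without replicate 1, 3.71; 2.42 in Col-0). It was the single riser among the 10 starch breakdown genes, while 4 of 10 synthesis genes rose, or 1 with only the 8 libraries.

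Salicylate defence genes fell in 6 of 28 cases and rose in 2 (median -0.36; without HL replicate 1, 10 fell and 2 rose), against 22 and 1 in Col-0 (median -1.18), with 11 higher interactions. Of all tested genes, 8.85% fell and 10.7% rose in BBX32-10, against 21.6% and 30% in Col-0. The level of the list in BBX32-10 minus that in Col-0 had a median of -0.77 log2 units in HL and -1.62 in LL. CBP60G, an activator of salicylate synthesis, had 1.37, 0.674, 0.666 and 0.505 FPKM in BBX32-10 HL against 5.02, 4.00, 2.93 and 2.42 FPKM in BBX32-10 LL (-1.34, adjusted p = 0.000669). LURP1, a defence gene against downy mildew, had 79.2, 1.96, 11.2 and 3.76 FPKM in HL and 34.3, 30, 45.7 and 24.7 FPKM in LL. Replicate 1 lay above all LL plants and the others below them, and it was called only without replicate 1 (-1.64, adjusted p = 0.0572; without it -2.61, adjusted p = 3.37e-05). PR1, a classical output, had 80.3 FPKM in replicate 1 and 9.02 to 17.0 FPKM in replicates 2 to 4, against 9.27 to 27.5 FPKM in LL, with no call (adjusted p = 0.803). PCC1 had 216, 5.20, 17.5 and 6.49 FPKM in HL and 48.5, 29.1, 115 and 38.3 FPKM in LL, and is 99.4% identical over 344 bases to AT3G22235. Replicate 1 was the highest HL library for 19 of the 28 genes.

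Other genes of the largest changes belonged to none of these lists. AT3G24420, annotated as an alpha/beta-hydrolase, had 38.5, 48.9, 44.6 and 51.1 FPKM in BBX32-10 HL against 4.15, 3.67, 2.78 and 1.84 FPKM in BBX32-10 LL. Replicate 1 was close to the other HL plants here (3.54 ± 0.17, limma adjusted p = 1.06e-11; interaction 1.2, adjusted p = 0.0014). GRXC11, a glutaredoxin, had 1.40, 1.97, 1.02 and 1.96 FPKM in HL against 15.9, 12.9, 12.6 and 14.8 FPKM in LL (-2.55 ± 0.18; -3.51 in Col-0). EXPA8, an expansin that loosens cell walls, had 2.91, 1.13, 4.48 and 3.27 FPKM in HL against 9.59, 10.2, 13.4 and 21.8 FPKM in LL (-1.91). IGMT4, an indole glucosinolate methyltransferase, fell by 1.65, and its transcript is 91.0% identical over 1425 bases to that of AT1G21120, which fell by 1.91. The ammonium transporter AMT1-2 had 86.8, 55.4, 47.2 and 76.8 FPKM in HL against 48.8, 44.3, 38.4 and 38.7 FPKM in LL (0.60, limma adjusted p = 0.0281). The call was lost without replicate 1 (0.46, limma adjusted p = 0.0937), and AMT1-2 was called in 4 of the 8 fits that left out 1 BBX32-10 library. Its level in Col-0 averaged 73.5 FPKM in HL and 6.47 FPKM in LL (interaction -2.72 ± 0.27, limma adjusted p = 1.26e-06). LHY, a morning clock factor, fell by 0.94, and the auxin repressor IAA1 fell by 1.19, with -0.77 and -0.98 in Col-0.

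The calls made with all libraries but not without HL replicate 1 numbered 597 (228 higher, 369 lower). Those made without it but not with all libraries numbered 891 (622 higher, 269 lower). Leaving out HL replicate 2, 3 or 4 instead gave 2575, 3389 and 3610 calls in all, against 3487 with every library. Among the 597, AT3G24463 had 12.1, 0.214, 5.95 and 0.720 FPKM in BBX32-10 HL against 0.0537, 0.173, 0.0211 and 0.179 FPKM in BBX32-10 LL, so replicates 1 and 3 carried the rise. It overlaps AT3G24460 by 1359 bases on the same strand, so reads may be split between them. AT3G24460 had 16.7, 0.567, 6.7 and 1.11 FPKM in BBX32-10 HL. STR15 had 0.0257, 0.221, 0.338 and 1.02 FPKM in HL and 0.530, 3.82, 9.55 and 0.542 FPKM in LL, and was called in 4 of the 8 fits that left out 1 BBX32-10 library. Among the 891, CYP81D11, a cytochrome P450, had 13.5, 27.1, 8.54 and 140 FPKM in HL and 4.53, 31.5, 3.85 and 3.28 FPKM in LL. Its difference was 1.80 (limma adjusted p = 0.0594), and 2.1 without replicate 1 (limma adjusted p = 0.0393). It was called in 3 of the 8 fits that left out 1 BBX32-10 library. In each of these genes 1 or 2 plants set a group's mean.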

How the data were processed

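RNA-seq libraries were made from leaves of 24 single plants, 4 in each of 6 groups set by the labels. The deposited table gives FPKM per gene, made by the authors; the submitters' processing notes name TAIR10, CASAVA, HISAT2 2.0.5, HTSeq 0.6.1 and DESeq2 1.20.0, without roles. The labels' protocols name no strand-marking step, so overlapping antisense genes cannot be told apart. For 93.9% of genes, values were whole fragments within 0.05, which gave the depths.

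Tests used limma 3.58.1 in R 4.3.3 on log2(FPKM + 1), with an intensity trend, 1 mean per group over all 24 libraries, no covariate, two-sided, Benjamini-Hochberg over 17788 genes; on this scale changes of low genes are understated. The script was tested on simulated data. Named genes were BBX32, HY5, the 10 largest robust rises and falls, the 4 extreme interactions each way, the 4 largest calls that came or went with HL replicate 1, and list members. A robust gene was called with each BBX32-10 library left out and had no overlap between groups. Members and lists were chosen with earlier results of these data known. Similar transcripts shared at least 90% over 100 bases (blastn 2.17.0). No column was left unused (0).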

Additional observations from a re-analysis of the deposited data

Results flagged for a closer look

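In 12 of 228 groups of 4 libraries over the named genes, 1 library stood far from the other 3, with a gap beyond Dixon's 95% critical value, given here as a share of the group's range; chance gives about 1 group in 20. The 12 groups of 228 are thus near the share that chance gives. In BBX32-10 HL, replicate 1 was the high library for BG3 (0.906 of the range), LURP1 (0.881), PCC1 (0.941) and AT3G22235 (0.914). LURP1, PCC1 and AT3G22235 were named because they were called without replicate 1 and not with all libraries. A distant replicate 1 in them follows from that choice. Replicate 4 was the high one for CYP81D11 (0.859) and the low one for DVR (0.833), a chlorophyll synthesis gene. In BBX32-10 LL, 1 library was high for HSP17.8 (0.908), HSP23.6 (1.0), AT3G06955 (1.0) and CYP81D11 (0.956), and 1 was low for GOLS3 (0.947) and COR15A (0.96).

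The response to HL differed between BBX32-10 and Col-0, by the interaction term in limma, for 41 of 113 named genes. Values are log2 differences of the 2 responses, BBX32-10 minus Col-0. The 19 higher ones were AT3G06955 (2.41), AT3G06655 (2.29), BG3 (2.2), AT3G23080 (2.14), SARD4 (1.84), AT5G48490 (1.78), ERF107 (1.69), MBF1C (1.69), LHB1B1 (1.49), AT3G24420 (1.2), EXPA8 (1.08), GRXC11 (0.961), LHCB1.3 (0.79), PSAO (0.741), VTC4 (0.703), NAC104 (0.644), CAO (0.521), HAT4 (0.462) and COL4 (0.379). The 22 lower ones were ELIP2 (-3.63), AT2G27420 (-3.33), ELIP1 (-2.86), AMT1-2 (-2.72), BBX32 (-2.16), FLS1 (-1.98), HYH (-1.91), COR15A (-1.9), AT1G03495 (-1.5), HY5 (-1.4), MIP1B (-1.39), GOLS3 (-1.33), MYB75 (-1.07), FD1 (-0.994), FTSH5 (-0.921), CYP73A5 (-0.889), PSBS (-0.824), 4CL1 (-0.761), NYC1 (-0.746), ARP2 (-0.716), RPL19A (-0.516) and ERF1-2 (-0.397). AT3G06955, AT3G06655 and BG3 were at or under 1.13 FPKM in every BBX32-10 library, while their responses in Col-0 were -1.84, -2.51 and -2.39.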

How the results depend on the processing

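The count of 3487 genes called in BBX32-10 was 1982 with only the libraries compared, 7745 with array quality weights and 326 with a 2-fold minimum; the interaction count of 3524 was 6709 with weights and 612 with a 2-fold minimum. For BBX32-10, the count was 3443 with a pseudocount of 0.1, 3377 without the filter, 2813 above a mean FPKM of 5 and 3388 by voom on recovered fragments. Leaving out 1 library at a time gave 2575 to 3781 and 2734 to 4808. The mean score of the HL libraries was 0.857 with a pseudocount of 0.1, an alternative chosen after seeing the data. BG3 reversed to -0.22 with voom; the cause was not tested. Same-numbered BBX32-10 HL and LL libraries deviated together with r of 0.258, 0.0077, 0.048 and 0.026, so the numbers were not taken to pair the plants; the fit with the replicate block gave 3237 and 3290 calls. Genes under about 1 FPKM are limited by depth and by the pseudocount.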

Other observations

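The genes in this paragraph were picked after their values were seen. They include genes of protein folding in the endoplasmic reticulum. TIN1, a gene induced by the folding inhibitor tunicamycin, had 9.61, 23.8, 18.7 and 18.6 FPKM in BBX32-10 HL against 2.16, 2.00, 2.89 and 2.75 FPKM in BBX32-10 LL (2.38 ± 0.28, limma adjusted p = 4.4e-06), and its interaction with genotype was 1.87 (adjusted p = 0.00191). ERDJ3A, a DnaJ co-chaperone of that compartment, had 3.42, 8.51, 6.82 and 7.08 FPKM in HL against 1.22, 1.69, 2.00 and 1.78 FPKM in LL (1.43, interaction 1.18). The protein disulfide isomerase PDIL2-2 rose by 1.62, the nucleotide sugar carriers UTR1 and UTR3 rose by 0.96 and 1.29, and BIP, the HSP70 of that compartment, had 126, 230, 231 and 191 FPKM in HL against 95.9, 88.5, 99.4 and 88.9 FPKM in LL (1.02, adjusted p = 0.00171). HL and LL plants did not overlap for these 6 genes, and replicate 1 was the lowest HL plant for each. Of all tested genes, 10.5% were higher in HL without overlap, and replicate 1 was lowest for 48.4%. In LL, BBX32-10 means lay below Col-0 means for TIN1 (2.451 against 8.326 FPKM), ERDJ3A (1.673, 5.712) and PDIL2-2 (7.958, 17.21). The same held for UTR1 (8.375, 17.82) and UTR3 (16.63, 27.41). Col-0 LL plants differed widely, with an SD (n = 4) of 4.0, 2.8, 8.3, 7.1 and 7.7 FPKM in this order, and replicates 1 and 2 were the highest. For UTR3 the LL groups overlapped, with 18.7 FPKM in Col-0 LL replicate 3 and 19.8 FPKM in BBX32-10 LL replicate 4. In HL the means were, in this order, 17.69 against 11.92, 6.457 against 6.615, 27.22 against 25.45, 17.79 against 16.53 and 43.09 against 38.36 FPKM. BIP is 97.2% identical over 2122 bases to MED37A, so reads may be split.

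Further genes, also picked after their values were seen, were these. PIP2-3, a water channel of the plasma membrane, had 107, 242, 183 and 244 FPKM in BBX32-10 HL against 38.0, 44.2, 36.1 and 48.8 FPKM in BBX32-10 LL (2.13, adjusted p = 1.83e-07). CAX1, a vacuolar calcium exchanger, had 195, 149, 140 and 74.1 FPKM in HL against 37.8, 39.1, 45.2 and 49.9 FPKM in LL (1.60). GOLS1, a heat-induced galactinol synthase, had 67.6, 321, 63.7 and 466 FPKM in HL against a mean of 24.8 ± 11 FPKM in LL (SD, n = 4; 2.73), opposite in sign to GOLS3 (-3.04). CAD4, an enzyme of lignin monomer synthesis, had 116, 88.0, 99.1 and 82.5 FPKM in HL against 229, 219, 189 and 158 FPKM in LL, and fell by 1.03 where Col-0 rose by 0.39 (interaction -1.43, limma adjusted p = 3e-05).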
